A study of Danio rerio with 6 samples.

Results

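The genes itsn1, itsn2a and snx9a encode scaffold proteins of clathrin-mediated endocytosis, and their messenger RNA was followed in zebrafish of strain AB, as intact embryos taken 4.5 hours after fertilization, at 30% epiboly. They were chosen by gene name and make up 3 of the 99 genes in the table used here. Ranks, medians, shares and p-value adjustments over genes below refer to these 99 genes or to those tested among them, not to the whole transcriptome. MZdgcr8 embryos, which have neither the maternal nor the zygotic supply of Dgcr8, were compared with wild-type embryos. Dgcr8 is the RNA-binding partner of Drosha and is needed for Drosha to cut canonical microRNA precursors. There were 3 RNA sequencing libraries per genotype, numbered 1 to 3, and each library came from 50 pooled embryos. The labels give no dgcr8 allele and do not say whether the libraries came from separate clutches, so the p-values below rest on library-to-library spread that could be technical.

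In clathrin-mediated endocytosis a patch of plasma membrane is coated with adaptors and clathrin, bent into a pit and cut off by the GTPase dynamin. Intersectins are long scaffolds of the coat. Their EH domains hold coat proteins such as epsins, their SH3 domains hold dynamin, the lipid phosphatase synaptojanin and the actin regulator N-WASP, and the long isoforms also carry a guanine nucleotide exchange domain that activates Cdc42. Sorting nexin 9 acts later in the pit, where its PX and BAR domains bind and curve the membrane and its SH3 domain brings dynamin and N-WASP. In zebrafish embryos, endocytosis limits the spread of secreted Fgf8, and membrane is taken up at the yolk margin ahead of the moving blastoderm.

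Levels are given in FPKM, fragment counts corrected for transcript length and for the fragments mapped in the library, which allows 2 genes to be compared within a library. Relative library depth ran from 0.872 to 1.14 in MZdgcr8 and from 0.797 to 1.13 in wild type. In both genotypes replicate 3 stood apart. Replicates 1 and 2 correlated at 0.996 in each genotype over the 67 genes that averaged 1 FPKM or more (Pearson, log2(FPKM + 1)), and with replicate 3 they correlated at 0.805 and 0.801 in MZdgcr8 and at 0.901 and 0.891 in wild type. Each genotype result below is therefore also given for replicates 1 and 2 alone. Of 21 marker genes of the embryo's layers the table lists 2, and 1 of these, the enveloping layer keratin gene krt97, reached the minimum, which is too few to check the stage or cell types. The level of krt97 was 31.1, 26.9 and 331 FPKM in MZdgcr8 replicates 1, 2 and 3, against 145, 144 and 302 FPKM in wild type. It thus moved with genotype in replicates 1 and 2 and with replicate 3 in both genotypes. The other listed marker, the iron exporter gene slc40a1 of the yolk syncytial layer, was between 0.263 and 0.371 FPKM in MZdgcr8 and between 0.0813 and 0.370 FPKM in wild type. The part of these layers in the results below was not tested. The dgcr8 transcript was not analysed here. In RNA from whole embryos, fewer cells of a type and less RNA per cell cannot be told apart.

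The intersectin message measured was almost wholly that of itsn1. The transcript of itsn1 (ENSDARG00000000086) was at 20.3, 18.8 and 4.08 FPKM in MZdgcr8 replicates 1, 2 and 3, against 13.6, 12.7 and 3.50 FPKM in wild type. The replicate 3 libraries held the lowest value of each genotype, and the ranges of the genotypes overlapped. Its paralog itsn2a (ENSDARG00000000161) was at 0.880, 0.741 and 0.210 FPKM in MZdgcr8 replicates 1, 2 and 3, against 0.952, 0.743 and 0.122 FPKM in wild type. No library reached 1 FPKM of itsn2a, and the genotypes overlapped here too. The deposited counts behind the itsn2a values ran from 83 to 429 in MZdgcr8 and from 45 to 486 in wild type, in units that may not be single reads.

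Within a library, itsn1 exceeded itsn2a 23.0-, 25.3- and 19.4-fold in MZdgcr8 replicates 1, 2 and 3, and 14.3-, 17.1- and 28.6-fold in wild type. Of the FPKM of both paralogs together, itsn1 made up 95.8, 96.2 and 95.1% in MZdgcr8 and 93.5, 94.5 and 96.6% in wild type. The order was the same in 6 of 6 libraries, including both replicate 3 libraries, where each paralog was at its lowest. The mean log2 ratio of itsn1 to itsn2a, with 0.1 FPKM added to each, was 4.04 ± 0.32 (SD, n = 6; exact two-sided sign-flip permutation test, p = 0.03125, which is the smallest that 6 libraries allow, and 0.0469 after Benjamini-Hochberg adjustment over the 3 gene pairs compared). Any 2 genes in the same order in all 6 libraries get this unadjusted p, so it adds nothing beyond that order. The zebrafish genome holds a further intersectin gene, itsn2b, which was not analysed here, so the shares describe only these paralogs.

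The sorting nexin gene snx9a (ENSDARG00000000837) lay between the intersectins in 5 of 6 libraries and above both in wild type replicate 3. It was at 4.34, 4.61 and 1.49 FPKM in MZdgcr8 replicates 1, 2 and 3, against 5.37, 4.97 and 4.72 FPKM in wild type. All MZdgcr8 libraries lay below all wild-type libraries, which held in this direction for 8.96% of the genes averaging 1 FPKM or more (6 of 67). The gap was narrow, from 4.61 FPKM in MZdgcr8 replicate 2 to 4.72 FPKM in wild type replicate 3, and only MZdgcr8 replicate 3 lay far below. Unlike the intersectins, snx9a kept a similar level in the 3 wild-type libraries, with a mean of 5.02 ± 0.33 FPKM (SD, n = 3).

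**Figure D1:**
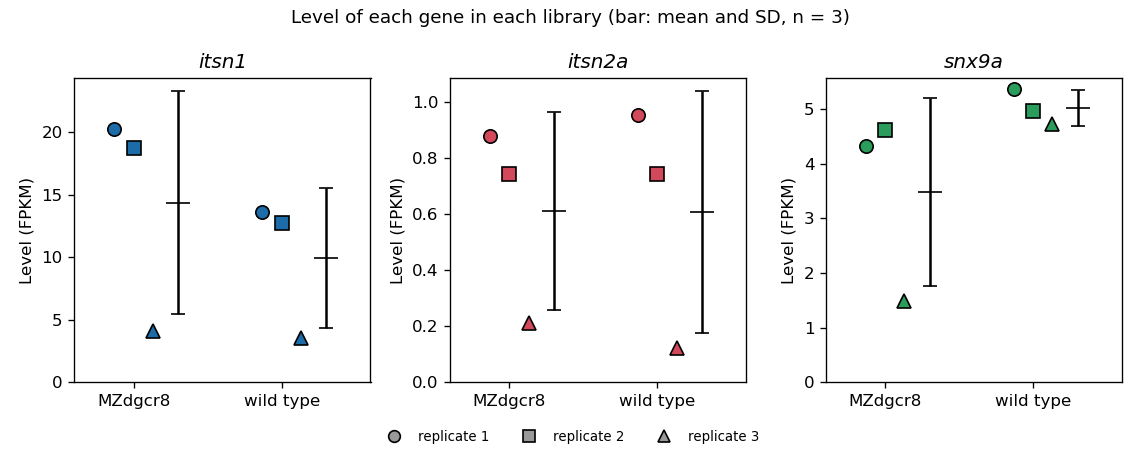
The level in FPKM (vertical axes, each panel with its own scale from 0) of itsn1, itsn2a and snx9a in the 3 MZdgcr8 and 3 wild-type libraries, with symbols for the replicate number and a bar for the mean and SD. Replicate 3 was lowest in each genotype for each gene, and wild type replicate 3 of snx9a (4.72 FPKM) stayed near replicates 1 and 2 of its genotype.

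Set against the rest of the table, mean levels over the 6 libraries placed itsn1 at rank 33 of 99 genes (12.2 FPKM), snx9a at rank 53 (4.25 FPKM) and itsn2a at rank 72 (0.608 FPKM). The level of snx9a exceeded that of itsn2a 4.93-, 6.22- and 7.12-fold in MZdgcr8 replicates 1, 2 and 3, and 5.64-, 6.69- and 38.6-fold in wild type. The log2 ratio of itsn2a to snx9a averaged -2.74 ± 0.84 (SD, n = 6, 0.1 FPKM added; exact two-sided sign-flip permutation test, p = 0.03125, adjusted 0.0469). The level of itsn1 exceeded that of snx9a 4.67-, 4.07- and 2.73-fold in MZdgcr8 replicates 1, 2 and 3 and 2.54- and 2.56-fold in wild type replicates 1 and 2. In wild type replicate 3 the order was turned, with itsn1 at 0.741 of the level of snx9a. With the order turned in that library, the difference between itsn1 and snx9a did not pass (mean log2 ratio 1.30 ± 0.92, SD, n = 6; exact two-sided sign-flip permutation test, p = 0.0625, adjusted 0.0625). Without that library the mean log2 ratio was 1.65, with the same unadjusted p, which is the smallest that 5 libraries allow. The order of levels was thus itsn1, snx9a, itsn2a in 5 of 6 libraries, and itsn2a was the lowest in 6 of 6. These tests take the 6 libraries as independent. With the 3 replicate numbers as the units, no p below 0.25 would be possible.

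**Figure D2:**
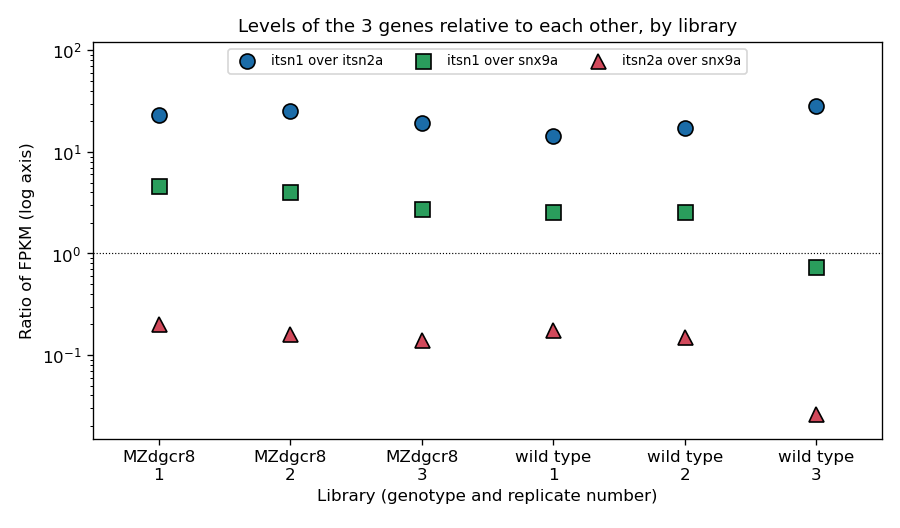
Ratios of FPKM between the 3 genes (vertical axis, logarithmic, dotted line at 1) in each library (horizontal axis). The ratio of itsn1 to itsn2a stayed between 14.3 and 28.6 in all 6 libraries, while wild type replicate 3 has the lowest ratio of itsn1 to snx9a (0.741).

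The balance between the genes was also compared between the genotypes, on the log2 scale with 0.1 FPKM added. The log2 ratio of itsn1 to itsn2a was 4.21 ± 0.40 in MZdgcr8 and 3.88 ± 0.16 in wild type (SD, n = 3 each), a difference of 0.32 with overlapping libraries (exact two-sided permutation test, p = 0.3). These spreads depend on the constant, since itsn2a was low. With none added, wild type spread more widely, from 14.3- to 28.6-fold against 19.4- to 25.3-fold in MZdgcr8. The log2 difference was then 0.23 (exact two-sided permutation test, p = 0.5). The log2 ratio of itsn1 to snx9a was 1.86 ± 0.42 in MZdgcr8 and 0.75 ± 1.01 in wild type (SD, n = 3 each), and every MZdgcr8 library lay above every wild-type library (difference 1.12, exact two-sided permutation test, p = 0.1). The margin between the lowest MZdgcr8 library (1.39, replicate 3) and the highest wild-type library (1.34, replicate 2) was small. The size of the difference rested largely on wild type replicate 3, at -0.42, and without that library it was 0.53. The separation also depended on the added constant. With all 6 libraries and 1 FPKM added in place of 0.1, the genotypes overlapped (difference 0.93, exact two-sided permutation test, p = 0.3). For itsn2a over snx9a the log2 ratios were -2.34 ± 0.15 in MZdgcr8 and -3.14 ± 1.13 in wild type (SD, n = 3 each; exact two-sided permutation test, p = 0.2). With 3 libraries against 3 the smallest p possible is 0.1, so no difference in balance could pass the threshold, and over the 3 pairs each adjusted p was 0.3. In replicates 1 and 2 alone, MZdgcr8 minus wild type was 0.62 for itsn1 over itsn2a and 0.77 for itsn1 over snx9a. For itsn2a over snx9a it was 0.15, against 0.79 with all 6 libraries.

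The genotype difference of each gene was tested with edgeR's quasi-likelihood test on the deposited counts, fitted over all 67 genes that reached a mean of 1 FPKM. Of the 3 genes, itsn1 and snx9a reached it and itsn2a did not. With all 6 libraries and no block, 0 of 67 genes passed an adjusted p of 0.05 (0% of those tested, 5 at an unadjusted p under 0.05), and DESeq2 and limma also called 0. Neither itsn1 nor snx9a passed, with a log2 change of 0.53 ± 0.74 (SE, adjusted p = 0.898) for itsn1 and of -0.53 ± 0.50 (SE, adjusted p = 0.898) for snx9a. With no filter on low values, itsn2a had a log2 change of 0.01 ± 0.84 (SE, adjusted p = 0.992 in edgeR). The mean level of itsn1 was 14.4 ± 8.94 FPKM in MZdgcr8 and 9.95 ± 5.61 FPKM in wild type, and that of snx9a was 3.48 ± 1.73 FPKM in MZdgcr8 and 5.02 ± 0.33 FPKM in wild type (SD, n = 3 each). These errors carry the distance of replicate 3 from the other replicates.

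For itsn1, MZdgcr8 exceeded wild type 1.49-fold in replicate 1, 1.48-fold in replicate 2 and 1.17-fold in replicate 3. The direction was the same in 3 of 3 numbers, which was also so for 19.4% of the tested genes, 13 of 67, in the higher direction. In replicates 1 and 2 alone itsn1 rose 1.48-fold in MZdgcr8 (log2 0.57 ± 0.08 SE, adjusted p = 0.00129 in edgeR). In that comparison 64.2% of the tested genes were called and 23.9% were called higher, so a call was common. Its error comes from replicates 1 and 2, which nearly coincide. Its p-value therefore does not show a difference beyond the spread between independent libraries. With the replicate number as a block and all 6 libraries the log2 change of itsn1 was 0.45 ± 0.14 (SE), which did not pass (unadjusted p = 0.026, adjusted p = 0.109 in edgeR), in a fit that called 7.46% of genes. With replicate 3 against replicates 1 and 2 as a term in place of the block, the log2 change was 0.45 ± 0.11 (SE) and itsn1 passed (adjusted p = 0.0353 in edgeR), where 16.4% of genes were called higher. That term and the fit of replicates 1 and 2 alone were chosen after replicate 3 was seen to differ in these same values. Both passes are therefore descriptions. The pairing by number in the block was also taken from these data, as the design names no pairing. The call of itsn1 thus depends on how replicate 3 is treated, while its log2 value lay between 0.45 and 0.57 in these fits. Other methods and scalings with all 6 libraries gave values from 0.32 (limma, 5 FPKM added) to 0.60 (edgeR with TMM scaling). All of these fits hold the same replicate numbers in both genotypes. Where that was not so, the unblocked value was 0.12 without wild type replicate 3 and 0.97 without MZdgcr8 replicate 3.

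For itsn2a, MZdgcr8 was at 0.923 and 0.997 of the wild-type level in replicates 1 and 2 and at 1.71 times that level in replicate 3. In replicates 1 and 2 alone, with no filter, its log2 change was -0.07 ± 0.16 (SE, adjusted p = 0.752 in edgeR), and with the block it was 0.19 ± 0.26 (SE, adjusted p = 0.636 in edgeR). The difference in response between the paralogs was tested only as their ratio, given above.

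For snx9a, MZdgcr8 was at 0.807 and 0.928 of the wild-type level in replicates 1 and 2 and at 0.316 of it in replicate 3, 3.16-fold lower. The groups did not overlap, which held in this direction for 8.96% of the tested genes (6 of 67), and 43.3% of the tested genes were lower in 3 of 3 numbers. In replicates 1 and 2 alone the log2 change was -0.21 ± 0.09 (SE), which did not pass (adjusted p = 0.0862 in edgeR, where 40.3% of genes were called lower). With the block it was -0.68 ± 0.37 (SE, adjusted p = 0.273 in edgeR). Most of the difference in means came from 1 library, MZdgcr8 replicate 3. Without it the log2 change of all other libraries was -0.17 ± 0.21 (SE, adjusted p = 0.777 in edgeR). That fit set MZdgcr8 replicates 1 and 2 against all 3 wild-type libraries, so replicate 3 was in wild type alone. The median over the tested genes was 0.01 in that fit, against -0.16 with all 6 libraries.

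**Figure D3:**
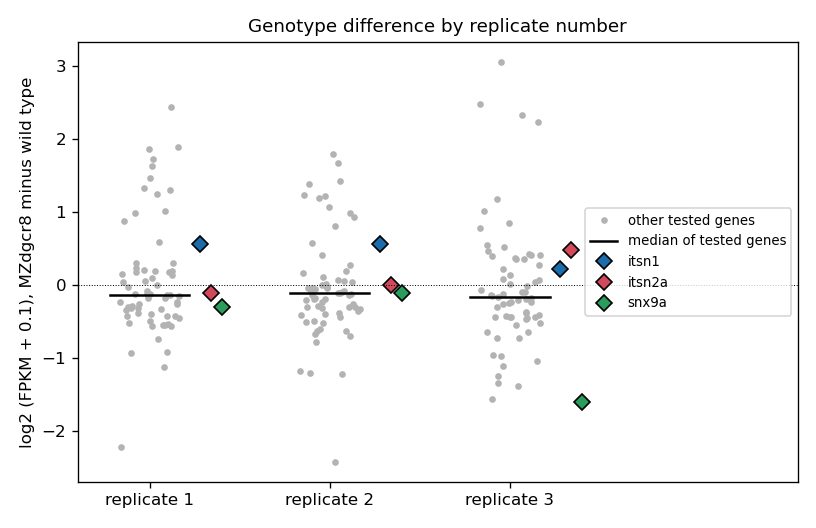
Difference between MZdgcr8 and the wild-type library of the same number (vertical axis, log2(FPKM + 0.1)) for each replicate number, with the other tested genes in grey, the median of the 67 tested genes as a line and the 3 genes as diamonds. In replicates 1 and 2 itsn1 lies at 0.57 and 0.56, and in replicate 3 snx9a lies at -1.60, below every other tested gene.

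Between the libraries numbered 3, snx9a differed more widely than between those numbered 1 and 2. Among pairs numbered 3, the log2 difference of snx9a, -1.60 with 0.1 FPKM added, was the lowest of the 67 tested genes, whose median was -0.16. The next lowest tested gene was close, at -1.55, and some genes under the 1 FPKM minimum lay lower, down to -2.21. In the pairs numbered 1 and 2 the difference of snx9a was -0.30 and -0.11, where the medians were -0.13 and -0.11. A fit with an interaction of genotype and replicate set gave -1.45 on the log2 scale for snx9a, -0.35 for itsn1 and, with no filter, 0.82 for itsn2a. Its error comes from replicates 1 and 2 alone, which nearly coincide, because replicate 3 is a single library in each genotype, so its p-values do not show that these differences exceed the spread between independent libraries. By that error edgeR called snx9a (adjusted p = 0.00137) and not itsn1 (adjusted p = 0.0735), among 41.8% of genes called and 25.4% called in the direction of snx9a. With TMM scaling it called 36 of the 67 genes, 27 of them in that direction, and itsn1 was then among the calls (-0.51, adjusted p = 0.0215).

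Both intersectins were far lower in replicate 3 than in replicates 1 and 2. Since replicate 3 was set apart after it was seen to differ in these same values, the distances are a description and are given with no test. Within each genotype, itsn1 in replicate 3 was 4.79-fold below the mean of replicates 1 and 2 in MZdgcr8 and 3.77-fold below it in wild type. For itsn2a the distance was 3.86-fold in MZdgcr8 and 6.92-fold in wild type. For snx9a the genotypes parted, with replicate 3 lower 3.00-fold in MZdgcr8 and 1.10-fold in wild type.

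At the authors' scaling most tested genes were lower in replicate 3, 49 of 67 in MZdgcr8 and 51 of 67 in wild type, with median shifts of -0.71 and -0.58 in log2(FPKM + 0.1). In edgeR, with genotype in the model, the median over the tested genes was -0.78, against -2.08 for itsn1 and -0.79 for snx9a. TMM scaling moved that median to -0.25, itsn1 to -1.55 and snx9a to -0.25, so the values of single genes are best read against the median. In log2(FPKM + 0.1), 11 of the other 66 tested genes lay below the shift of itsn1 in MZdgcr8 (-2.23) and 9 of them lay below it in wild type (-1.88). The snx9a shift in wild type (-0.13) lay above those of 47 of the other 66 tested genes, and in MZdgcr8 (-1.52) above those of 19. Relative depth was also lowest in replicate 3 of each genotype, 0.872 in MZdgcr8 and 0.797 in wild type, and its part in these shifts was not tested.

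**Figure D4:**
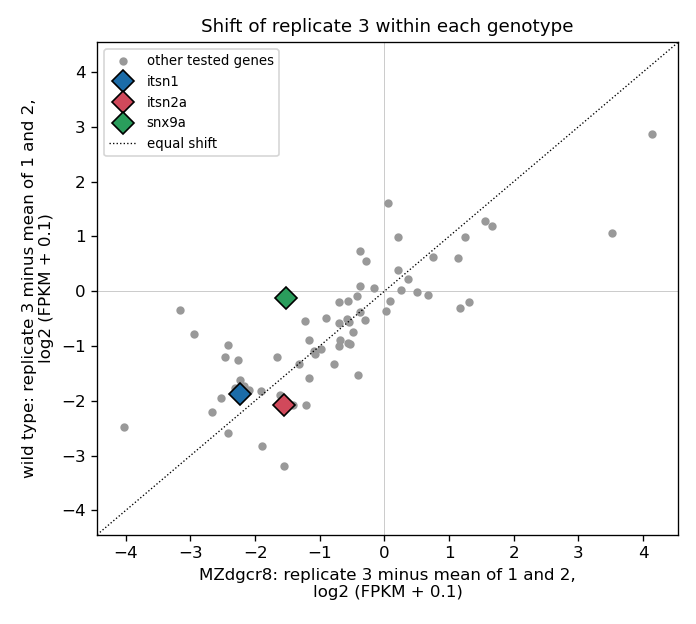
Shift of replicate 3 from the mean of replicates 1 and 2 in log2(FPKM + 0.1), in MZdgcr8 (horizontal axis) and in wild type (vertical axis), for the tested genes in grey and the 3 genes as diamonds, with a dotted line where the shifts are equal. At low values, itsn1 lies near the line (-2.23 and -1.88) and itsn2a lies below it (-1.55 and -2.08), while snx9a lies well above it at -1.52 and -0.13.

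The list of clathrin endocytosis genes, which covers coat proteins, adaptors, dynamins and their partners, had 100 names, and 4 of them are in the table. Besides the 3 genes described, it holds inppl1b, which encodes a phosphoinositide 5-phosphatase of the SHIP2 kind, in mammals a binding partner of intersectin. The level of inppl1b was 4.87, 4.80 and 0.538 FPKM in MZdgcr8 replicates 1, 2 and 3, against 2.60, 2.69 and 1.51 FPKM in wild type. Like itsn1 it was higher in MZdgcr8 in replicates 1 and 2 (log2 0.87 ± 0.08 SE, adjusted p = 0.000324 in edgeR), and like snx9a it was lower in MZdgcr8 in replicate 3, a comparison of 1 library per genotype. In the fit of all 6 libraries with no block, 0 of the 3 listed genes that were tested passed in either direction. In replicates 1 and 2 alone 2 of 3 passed as higher and 0 as lower, where 23.9% and 40.3% of all tested genes did so. Because those replicates nearly coincide, these p-values do not show differences beyond the spread between independent libraries.

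In the gene ontology terms deposited with the table, endocytosis is attached to itsn2a and snx9a and not to itsn1. The table lists 5 transcripts for itsn1, 2 for itsn2a and 3 for snx9a and gives 1 value per gene, so long and short isoforms of the intersectins cannot be told apart. The ratio of count to FPKM, which grows with the transcript length used, was 1.24 times as high for itsn1 as for itsn2a and 2.21 times as high as for snx9a.

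Over the 6 libraries itsn1 and itsn2a followed each other (Pearson r = 0.950 in log2(FPKM + 1)), and snx9a correlated less with them (0.536 with itsn1 and 0.557 with itsn2a). These values are descriptions over 6 points, of which replicates 1 and 2 nearly coincide and replicate 3 sets the spread, so no p is given. The tested genes closest to itsn1 were the polarity scaffold gene scrib (r = 0.983), the thyroid hormone receptor gene thraa (0.980) and the mitochondrial import gene tomm34 (0.979), where the median over the tested genes was 0.755. Closest to itsn2a were the Polycomb component gene pcgf1 (0.991), the transcription factor gene nrf1 (0.968) and the ubiquitin-conjugating enzyme gene ube2h (0.967), with a median of 0.733. Closest to snx9a were the kinase gene dstyk (0.953), the nonsense-mediated decay factor gene upf3b (0.944) and the non-muscle myosin gene myh10 (0.923), with a median of 0.527. The pattern nearest to snx9a, that of dstyk, was at 57.5, 57.4 and 38.6 FPKM in MZdgcr8 replicates 1, 2 and 3 and at 57.6, 60.9 and 52.4 FPKM in wild type, so MZdgcr8 replicate 3 was the lowest library for it as well. Since dstyk was picked for its correlation with snx9a over these same libraries, the shared lowest library is no separate support.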

How the data were processed

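RNA was prepared with a column kit from 50 pooled embryos a sample and sequenced on an Illumina platform, per the labels' protocols. The deposited table gives FPKM, scaled by the authors, and counts, per the file headers, which do not say whether the counts were scaled. The submitters' processing notes name HISAT2 2.0, StringTie 1.3.0, Bowtie 0.12.2 and a mouse genome build. The zebrafish build and the treatment of reads shared by paralogs are not stated there, so no coordinates are printed and the split of reads between itsn1 and itsn2a is uncertain. All 99 identifiers matched a table of gene names.

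Relative depth, from the ratio of count to FPKM over 58 genes above 200 counts throughout (largest deviation 0.00479, log2), replaced column totals. No count is 1, 2 or 3, so a count may not be a read and no counting intervals are given. edgeR 4.0.16 (quasi-likelihood, R 4.3.3) was run on the 67 genes averaging 1 FPKM or more, or on all 99 for itsn2a, which is under that minimum, with two-sided p-values, Benjamini-Hochberg adjustment over the genes tested and a threshold of 0.05. Gene ratios, with 0.1 FPKM added, had exact permutation tests (scipy 1.17.1). DESeq2 1.42.0, limma 3.58.1 (pseudocounts 0.1, 1 and 5), TMM, RLE, no filter, counts divided by 4 and leaving out each library were alternatives. The edgeR code, with no block, with the block and with the replicate set as a term, was tested on simulated data. Those data had independent libraries and no shift of replicate 3, so the test does not cover the spread seen here.

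Deviations from genotype means correlated over genes at 0.773, 0.757 and 0.805 between libraries numbered 1, 2 and 3. The numbers were therefore treated as pairs in the replicate block and in the differences by number, but not in the main fit. This pairing comes from the data and rests on replicate 3, since replicates 1 and 2 also correlated across genotypes at 0.714 and 0.824. Members, lists and fits were chosen with earlier results of these data known. Other genes named are those of the endocytosis list, the layer markers in the table and, for each member, the 3 most correlated with it.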

Additional observations from a re-analysis of the deposited data

Results flagged for a closer look

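The genotype difference of snx9a was larger in replicate 3 than in replicates 1 and 2, by an interaction term in edgeR (log2 -1.45 ± 0.19 SE). This term was at rank 6 from the lowest among the 67 tested genes, and that of inppl1b was lower, at -2.36. In replicate 3 snx9a was at 1.49 FPKM in MZdgcr8 and 4.72 FPKM in wild type, while in replicates 1 and 2 the means were 4.48 FPKM in MZdgcr8 and 5.17 FPKM in wild type. Replicate 3 is 1 library per genotype, and the error comes from replicates 1 and 2, which nearly coincide (biological coefficient of variation 8.39%). The interaction term therefore does not show a difference beyond the spread between independent libraries. The alternatives share this limit and add nothing (-1.61 with TMM scaling, -1.39 without wild type replicate 2). The part of 1 library, MZdgcr8 replicate 3, cannot be told apart from that of the genotype within replicate 3.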

How the results depend on the processing

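With the unblocked edgeR fit calling 0 of 67 genes, the count was 5 with the replicate block, 4 with TMM scaling and the block, 11 with DESeq2 and the block, 26 with replicate set as a term, 43 in replicates 1 and 2 alone and 2 with RLE scaling, and between 0 and 3 when 1 library was left out (3 without MZdgcr8 replicate 3). The log2 change of itsn1 passed with replicate set as a term (0.45) and in replicates 1 and 2 alone (0.57), both chosen after replicate 3 was seen to differ. Its interaction was -0.51 with TMM scaling. The block changed the call of none of the 3 genes. Leaving out 1 library moved the unblocked value of itsn1 between 0.12 (without wild type replicate 3) and 0.97 (without MZdgcr8 replicate 3), that of snx9a between -0.78 and -0.17, and that of itsn2a, with no filter, between -0.47 and 0.49, with no call. The log2 ratio of itsn1 to itsn2a stayed between 3.96 and 4.11 without any 1 library and was 4.12 in replicates 1 and 2 alone, and that of itsn2a to snx9a lay between -2.85 and -2.40 and was -2.41. The added constant moved these ratios more, to 2.83 and -1.68 with 1 FPKM and to 4.37 and -3.05 with none, with the same p. Those subsets did not pass because 5 libraries allow no exact p below 0.0625 and 4 none below 0.125. Depth is known only as relative depth.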
